A study of Mus musculus with 2 samples.

Results

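A small set of pancreatic beta cells carried transcripts of genes that interferon is known to induce. They were picked from 2 droplet single-cell RNA libraries of mouse islets by a rule on 5 such genes, Ifit1, Ifit3, Rsad2, Oasl2 and Iigp1. A barcode was kept if it had 1500 or more unique molecular identifiers (UMIs, counted RNA molecules) and 500 or more genes, and if mitochondrial transcripts made up no more than 15% of it. It was taken as a beta cell when Ins1 and Ins2 together held at least 30% of its UMIs, with Gcg under 2%, Sst under 1% and Ppy under 5%. A beta cell with a UMI of at least 2 of the 5 rule genes is called here an interferon-rule cell, and one with none of them a rule-negative cell. The rule found 324 interferon-rule cells among 12612 beta cells and 21729 kept barcodes, and 10290 rule-negative cells.

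The islets came from C57BL/6J mice, 13 weeks old. The series asks about subpopulations of alpha, beta and delta cells in prediabetes induced by a high-fat diet (HFD), and holds 1 HFD library and 1 library labelled CD, which the labels leave unexpanded. The labels name no genetic change and do not say how many mice were pooled. Depth was 265836346 UMIs in CD over 9667 kept barcodes and 271527648 UMIs in HFD over 12062. Each diet has a single library, so differences between diets have no replicate check and were not tested, and all 95% intervals below cover counting error only. The kept barcodes of both libraries shared 26 sequences, the beta cells 10 and the interferon-rule cells 0.

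Type I interferons bind a receptor made of IFNAR1 and IFNAR2. Kinases at the receptor, among them JAK1 and TYK2, then activate a transcription factor complex that holds IRF9 and binds the interferon-stimulated response element in the promoters of antiviral genes. Beta cells are known to answer interferon with antiviral effectors and with more of the machinery that presents peptides on MHC class I, a feature of the islets in type 1 diabetes.

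The promoters below are examples picked from genes that hold this element, and other genes named in the results lack it. The 250 bases before the start of each gene, from RefSeq on GRCm38.p6, are given 5′ to 3′ on the gene's strand, with each match to GAAA, any 2 bases, GAAA on either strand in capitals. Ifit1 (chr19:34640639-34640888, plus strand), Ifit3 (chr19:34583279-34583528, plus strand) and Rsad2 (chr12:26456453-26456702, minus strand) are rule genes. Bst2 (chr8:71537473-71537722, minus strand), Ddx60 (chr8:61927837-61928086, plus strand) and Cxcl10 (chr5:92348890-92349139, minus strand) were not used by the rule and were far higher in interferon-rule cells of the HFD library.
Ifit1: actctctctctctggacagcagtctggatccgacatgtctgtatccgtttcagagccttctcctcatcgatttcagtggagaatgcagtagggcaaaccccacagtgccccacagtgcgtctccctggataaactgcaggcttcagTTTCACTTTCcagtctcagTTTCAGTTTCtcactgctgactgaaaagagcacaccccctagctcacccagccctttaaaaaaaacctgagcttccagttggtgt
Ifit3: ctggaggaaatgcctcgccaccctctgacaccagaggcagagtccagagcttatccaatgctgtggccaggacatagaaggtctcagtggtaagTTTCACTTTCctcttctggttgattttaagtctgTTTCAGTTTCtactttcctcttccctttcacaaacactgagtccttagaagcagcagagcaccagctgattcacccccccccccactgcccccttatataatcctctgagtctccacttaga
Rsad2: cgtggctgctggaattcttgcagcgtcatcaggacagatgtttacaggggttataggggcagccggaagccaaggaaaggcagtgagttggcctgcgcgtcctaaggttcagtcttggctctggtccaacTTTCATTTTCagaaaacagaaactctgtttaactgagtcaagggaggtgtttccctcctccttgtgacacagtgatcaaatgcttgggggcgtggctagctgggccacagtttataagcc
Bst2: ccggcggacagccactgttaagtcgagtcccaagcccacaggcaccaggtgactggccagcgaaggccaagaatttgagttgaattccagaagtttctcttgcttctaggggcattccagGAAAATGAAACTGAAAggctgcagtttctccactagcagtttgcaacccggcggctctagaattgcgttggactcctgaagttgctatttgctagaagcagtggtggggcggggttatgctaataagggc
Ddx60: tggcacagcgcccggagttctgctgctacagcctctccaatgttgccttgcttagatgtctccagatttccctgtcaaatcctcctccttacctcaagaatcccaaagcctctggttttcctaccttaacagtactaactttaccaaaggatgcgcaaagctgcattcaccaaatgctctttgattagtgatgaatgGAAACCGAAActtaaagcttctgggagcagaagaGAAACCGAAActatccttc
Cxcl10: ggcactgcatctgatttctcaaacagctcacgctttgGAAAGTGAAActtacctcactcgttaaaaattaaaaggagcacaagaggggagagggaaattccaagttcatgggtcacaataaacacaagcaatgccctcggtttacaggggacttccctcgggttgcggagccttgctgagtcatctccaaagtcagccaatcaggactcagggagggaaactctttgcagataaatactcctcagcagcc

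In Ifit1 the matches began 104 and 85 bases before the start, and in Ifit3 156 and 122 bases before it. In Bst2 the 2 matches, 130 and 124 bases before the start, overlapped. Over windows from 250 bases before to 50 after the start, the element was found for 1079 of 27025 genes (3.99%). Of the rule genes, 4 matched a window by symbol and 3 of those held the letters. Oasl2 held none, and Iigp1 had no window. The windows of Irf7, Xaf1, Irf9, Cmpk2, Psmb8, Psmb9 and Psmb10, all higher in HFD interferon-rule cells, held none either. Among listed antiviral effectors 15 of 34 genes with a window held it (44.1%), among interferon-induced GTPases 9 of 10, among antigen presentation genes 5 of 16 and among beta cell identity genes 1 of 18. The gamma-activated site, searched on both strands as TTC, any 3 bases, GAA, was found for 9.55% of all genes, 26.5% of the effectors and 6 of the 10 GTPases. A match describes these letters and not a bound site.

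By the plain rule, interferon-rule cells were 122 of 5756 beta cells in the CD library (2.12%, interval 1.76 to 2.53%) and 202 of 6856 in the HFD library (2.95%, interval 2.56 to 3.37%). Detecting a gene with at least 1 UMI depends on depth, and the interferon-rule cells were deep. Their median was 50828 UMIs against 26303 in rule-negative cells of the CD library, and 30626.5 against 23120 in the HFD library. With each beta cell thinned to 10000 UMIs, which left out 337 shallower CD cells and 526 HFD cells, 7 of 5419 CD cells met the rule (0.129%, interval 0.052 to 0.266%) and 78 of 6330 HFD cells (1.23%, interval 0.975 to 1.54%). At that depth 38 HFD cells held at least 3 rule genes and 26 held at least 4, while no CD cell held 3, which allows a CD share of up to 0.0554% (3 counts of the total, the limit used here for every count of 0).

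**Figure D1:**
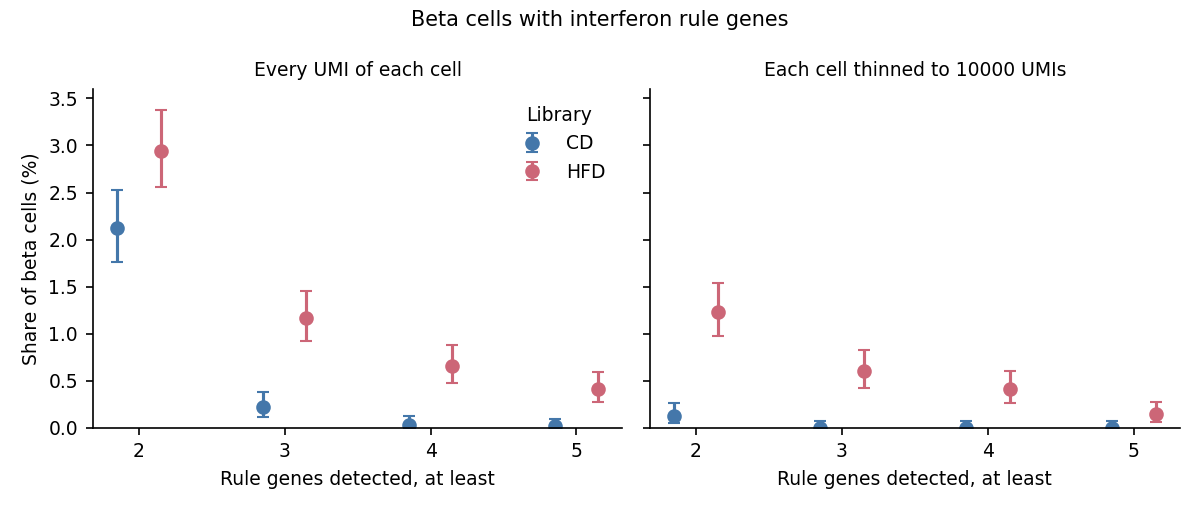
Share of beta cells (%) with at least 2, 3, 4 or 5 rule genes, in the CD and HFD libraries, with exact 95% intervals as bars; the left panel uses every UMI and the right panel each cell thinned to 10000 UMIs. Thinned, the CD share with at least 2 genes is 0.129% and the HFD share 1.23%.

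Most CD cells only just met the rule. Of the 122, 109 held exactly 2 rule genes, 11 held 3, 1 held 4 and 1 held 5. Of the 202 HFD cells, 122 held 2, 35 held 3, 17 held 4 and 28 held all 5. Just outside the rule, 949 CD and 1049 HFD beta cells held 1 rule gene.

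The levels of the rule genes chose the cells and are given as a description, as UMIs per 1000000 UMIs of the summed cells (CPM). Ifit1, which binds RNA that lacks the cell's own cap marks, was at 90.2 CPM in HFD interferon-rule cells and 13.6 CPM in those of CD. Rsad2, the antiviral enzyme viperin, was at 94.7 and 20.98 CPM in the same order, and Oasl2, of the oligoadenylate synthetase family, at 48.5 and 12.5 CPM. Ifit3, which works with Ifit1, was at 34.6 and 4.16 CPM and may share reads with its near-identical neighbour Ifit3b. Iigp1, a GTPase that attacks pathogen-holding vacuoles, was at 29.2 and 2.08 CPM. By these values all 5 were several-fold higher in the HFD cells than in the CD cells that met the same rule. Since 1 UMI of a gene is enough, a deeper cell can meet the rule at a lower CPM. The CD cells were deeper (median 50828 against 30626.5 UMIs), so the rule itself admits lower levels there. Its part was not tested. A single HFD cell held up to 52 UMIs of Rsad2 and 29 of Ifit1, against at most 10 and 3 in a CD cell. Barcodes with 10 to 100 UMIs, which mostly hold free RNA, had 7.45 CPM of Ifit1 and 2.71 of Rsad2 in CD and 6.83 and 13.0 CPM in HFD.

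RNA of other cell types stood beside the interferon genes in some of these droplets. Over 40 markers of macrophages, T and NK cells, B cells, endothelial and mesenchymal cells, 18 of 122 CD interferon-rule cells (14.8%) held at least 2 UMIs, against 1.92% of rule-negative cells. In HFD it was 42 of 202 (20.8%) against 3.25%. Endothelial markers made up most of this, with at least 2 UMIs in 14 CD and 28 HFD cells, and macrophage markers in 2 and 8. The endothelial list of 10 genes summed to 170 CPM in CD interferon-rule cells against 8.35 CPM in rule-negative cells, and to 380 against 17.2 CPM in HFD. The macrophage list of 14 genes summed to 29.5 against 52.3 CPM in CD and to 229 against 68.4 CPM in HFD. The cells fell apart by this measure: 14 CD and 36 HFD cells held between 11 and 168 other-cell UMIs, and nearly all others 0 or 1. Beta cells with fewer than 2 such UMIs are called screened cells below. The screen was added after seeing the data, and because its limit is a fixed number of UMIs it can remove deep cells more easily. With it the median depth of interferon-rule cells went from 50828 to 54333 UMIs in CD and from 30626.5 to 29894.5 in HFD. The screen kept 104 CD and 160 HFD interferon-rule cells, in which the endothelial list was by construction low, at 6.57 CPM for CD and 4.81 for HFD. For results given only with all cells, the part of other-cell RNA was not tested.

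**Figure D2:**
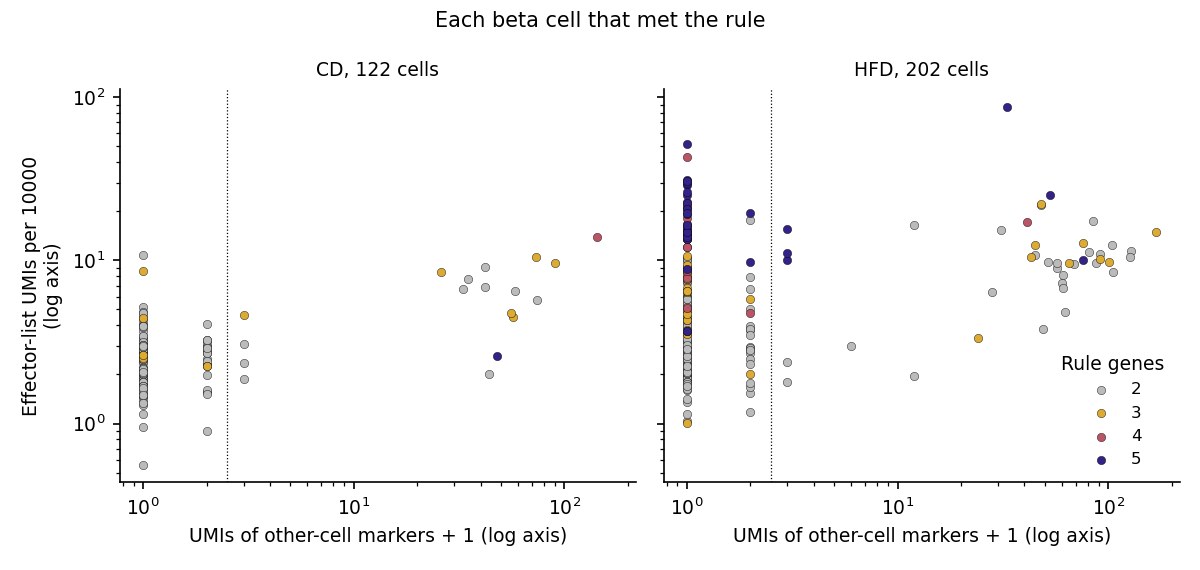
Every interferon-rule cell of the CD (122) and HFD (202) libraries, by the UMIs of 40 other-cell markers plus 1 (x, log axis) and the UMIs of 42 antiviral effector genes per 10000 UMIs (y, log axis), coloured by the number of rule genes; the dotted line marks the screen. HFD cells with 4 or 5 rule genes sit mostly left of the line, where the CD library has none.

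Other genes than those of the rule bore out the label of interferon-responding cells in HFD cells with 4 or 5 rule genes, in part in those with 3, and in few cells with exactly 2, which were most of the cells in either library. Both CD cells with 4 or 5 rule genes had at least 2 UMIs of other-cell markers, and 0 of 5618 screened CD beta cells held 4 or more, which allows a share of up to 0.0534%. In the HFD library 38 of 6555 screened beta cells did (0.58%, interval 0.411 to 0.795%). In those 38 cells 7 of 10 endothelial and 9 of 14 macrophage markers had 0 UMIs. The screen itself limits these counts. Among those at 0 were Pecam1, Cdh5, Plvap, Kdr and Cldn5, which define endothelium. So were Csf1r, Lyz2, Adgre1 and Ptprc, which define macrophages and leukocytes. Flt1, Emcn, C1qc and Cd74 had 1 UMI each, Ly6c1 and H2-Aa 2 each, and Fcer1g had 8. C1qa, a macrophage gene, had a UMI in 17 of the 38 cells. It was left out of the screen because beta cells at large held it (35.6 CPM in screened rule-negative HFD cells). Of the 5 label markers, Bst2 was the only one the rule did not use. Among all screened interferon-rule cells it had a UMI in 65 of 160 in HFD (40.6%) and 15 of 104 in CD (14.4%), against 6.2% and 7.29% of screened rule-negative cells. At exactly 2 rule genes the counts were 18 of 96 in HFD and 13 of 99 in CD, at 3 they were 14 of 26 and 2 of 5, and in the 38 HFD cells it was 33 (86.8%). The cells are therefore called by the rule throughout.

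The antiviral effector list held 42 genes of the files besides the rule genes, and its summed level was higher the more rule genes a cell of the HFD library held. In screened HFD cells the median was 2.32 effector UMIs per 10000 with 0 rule genes, 2.38 with 1, 2.84 with 2, 6.49 with 3, 15.2 with 4 and 19.3 with 5. The step from 1 to 2 rule genes, where the rule draws its line, was therefore small beside the step from 3 to 4. In screened CD cells the medians were 2.23, 2.27, 2.47 and 2.64 with 0, 1, 2 and 3 rule genes. The quartiles of HFD cells with 5 rule genes, 14.6 and 26.0 per 10000, lay above those of rule-negative cells, 1.60 and 3.18.

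The number of different effector genes per cell showed the same order. Of the 42, the median screened HFD cell had a UMI of 4 with no rule gene, 7 with 2, 11.5 with 3, 16 with 4 and 21.5 with 5, at median depths of 23070, 32533.5, 33301.5, 24867 and 28367.5 UMIs. Cells with 4 or 5 rule genes were thus no deeper than those with 2 or 3. At least 10 effector UMIs per 10000 were reached by 31 of 38 cells with 4 or 5 rule genes (81.6%), by 5 of 26 with 3, by 3 of 96 with 2 and by 16 of 5423 with none (0.295%). In the CD library 7 of 4595 rule-negative cells and 1 of 99 with 2 rule genes reached it, the latter at 10.84 per 10000 with 0 other-cell UMIs.

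**Figure D3:**
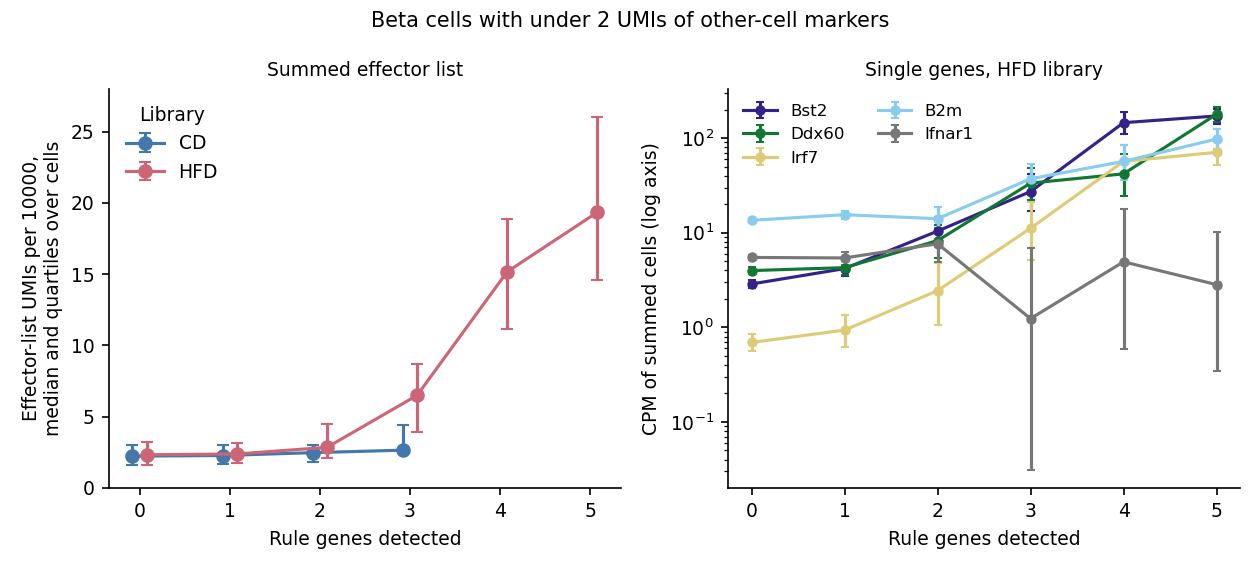
Screened beta cells by the number of rule genes detected. The left panel gives effector-list UMIs per 10000 (median and quartiles over cells) in both libraries, and the right panel the CPM of 5 genes (log axis, exact 95% Poisson intervals) in HFD; the HFD effector median goes from 2.32 to 19.3 while Ifnar1 shows no such climb.

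The 5 screened CD cells with 3 rule genes differed among themselves. In 3 of them the effector list stood at 2.26, 2.53 and 2.64 UMIs per 10000, near the CD median. The next had 4.42, with 4 UMIs of Bst2. The highest had 8.57 per 10000, 20 of the 42 effector genes, 8 UMIs of Bst2 and 6 of Rtp4, at 74703 UMIs. That cell also held the most UMIs of the rule genes among the 5, with 5 of Rsad2, 4 of Oasl2 and 3 of Ifit1.

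Over all features, genes with at least 5 CPM over the beta cells of a library were compared between interferon-rule and rule-negative cells of that library, and a ratio of at least 2 or at most 0.5 is called a difference. Since the cells were chosen by correlated genes, these counts describe the cells and test nothing. The 5 CPM limit also counts the interferon-rule cells, so a gene high in them can pass it through them. Ddx60, at 3.98 and 4.27 CPM in screened HFD cells with 0 and 1 rule genes, passed it only that way. In HFD, 57 of 7232 genes were higher (0.788%) with all cells, and 19 of 7184 (0.264%) with screened cells. In CD, 3 of 7323 were higher (0.041%) with all cells and 2 of 7312 (0.0274%) with screened cells. Lower genes numbered 2 (0.0277%) with all HFD cells, 6 (0.0819%) with all CD cells, 5 (0.0696%) in screened HFD cells and 8 (0.109%) in screened CD cells. With all cells 1 gene of 6993 tested in both libraries was higher in both (0.0143%), Col4a1, and 1 was lower in both (0.0143%), the hemoglobin gene Hbb-bs. In screened cells 0 of 6973 were higher in both (0%) and 1 was lower (0.0143%), again Hbb-bs. The 5 lower genes of screened HFD cells were Alg3, Mnt, Hist1h2ap, Hba-a1 and Hbb-bs.

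Of the 19 higher genes in screened HFD cells, 14 belonged to the interferon lists, among them Ddx60, Usp18, Samd9l, Cmpk2, Ifi27, Ifi35, Eif2ak2, Shisa5, B2m, H2-Q4, Psmb8, Psmb9 and Psmb10. The other 5 were Parp12, Trafd1, Ogfr, Cdk1 and Ube2c. The response element lay in the window of 5 of the 16 that had one, and in 195 of 5744 tested genes with a window (3.39%). Most interferon genes are scarce in beta cells, so only 13 of the 42 effectors passed the 5 CPM limit there, Ddx60 only through the interferon-rule cells. Of the 13, 7 were higher and none lower, with a median log2 ratio of 1.36 against 0.00045 over all tested genes. The limit thus favours higher genes in this count. With all HFD cells it was 8 of 14, with a median of 1.47 against 0.05. In CD 12 effectors passed the limit and none was called in either direction, with a median of 0.26 for all cells and 0.17 for screened cells. Summed over all 42 genes, the list was at 242 CPM in rule-negative and 675 CPM in interferon-rule screened HFD cells, and at 230 and 264 CPM in CD.

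Bst2, or tetherin, which holds budding virus at the cell surface, lay under the 5 CPM limit over screened beta cells but gave a clear contrast. In screened cells it was at 45.4 CPM in HFD interferon-rule and 2.87 CPM in HFD rule-negative cells, and at 5.29 and 2.55 CPM in the CD sets. The HFD log2 ratio was 3.98 (interval 3.74 to 4.22), and the CD ratio 1.05 (0.45 to 1.60). In HFD it went from 10.4 CPM with 2 rule genes to 27.2 with 3, 145 with 4 and 171 with 5. Of the 29 CD UMIs, 12 came from 2 cells with 3 rule genes, and cells with 2 rule genes were at 3.29 CPM. Free RNA held 30.4 CPM of Bst2 in HFD and 21.7 CPM in CD. The CD value was above both summed CD sets. The HFD value was below the summed HFD interferon-rule cells (45.4 CPM) but above those with 2 or 3 rule genes (10.4 and 27.2 CPM). The part of free RNA was not tested.

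Ddx60, a helper of viral RNA sensing, was at 37.9 against 3.98 CPM in screened HFD cells (log2 ratio 3.25, interval 3.01 to 3.49) and at 4.56 against 3.62 CPM in CD (0.33, interval -0.31 to 0.91). Rtp4, which inhibits flavivirus replication, was at 19.3 against 0.70 CPM in HFD (4.78, interval 4.36 to 5.20). In CD it was at 1.82 against 0.604 CPM (1.60, interval 0.48 to 2.54). The CD value rests on 10 UMIs in 4 of 104 cells, 6 of them in 1 cell, and CD cells with exactly 2 rule genes were at 0.58 CPM. Xaf1, a pro-apoptotic partner of XIAP, was at 17.3 against 0.888 CPM in HFD (4.29, interval 3.88 to 4.69) and at 4.01 against 1.81 CPM in CD (1.15, interval 0.45 to 1.78). Of the 38 screened HFD cells with 4 or 5 rule genes, Ddx60 had a UMI in 29, Rtp4 in 31 and Xaf1 in 27. In rule-negative HFD cells, Ddx60 had a UMI in 9.35%, Rtp4 in 1.73% and Xaf1 in 2.14%.

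Several effectors were scarce even in these cells. Isg15, the ubiquitin-like modifier that is among the strongest interferon-induced genes of many tissues, had 30 UMIs in 13 of 160 screened HFD cells (5.78 CPM against 0.0938) and none in the screened CD cells. Mx1, a dynamin-like antiviral GTPase, had 17 UMIs in 9 HFD cells, and Oas2 22 UMIs in 17 cells; neither had a UMI in the screened CD interferon-rule cells. Ifit3b was at 18.9 against 0.31 CPM in HFD, with the caution on Ifit3 above. Ifitm3, which blocks viral entry and is plentiful in endothelium, stood at 47.0 against 1.75 CPM over all HFD cells but at 1.54 against 0.657 CPM in screened ones.

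At the other end, effectors with a high resting level differed little. Lgals3bp, a secreted galectin ligand, was at 90.9 against 63.6 CPM in screened HFD cells, a log2 ratio of 0.52 (0.38 to 0.65), and Isg20, a ribonuclease, at 54.9 against 41.3 CPM, 0.41 (0.23 to 0.58). Between these ends lay Ifi27 at 56.8 against 18.2 CPM (1.64, interval 1.46 to 1.81), Cmpk2, the nucleotide kinase beside Rsad2, at 36.8 against 9.85 CPM (1.90, interval 1.67 to 2.12), and Eif2ak2, the RNA-activated kinase PKR, at 18.1 against 5.75 CPM (1.65, interval 1.33 to 1.96). Parp14 at 18.3 against 3.05 CPM and Herc6, the mouse ligase for Isg15, at 15.2 against 2.76 CPM lay under the 5 CPM limit.

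**Figure D4:**
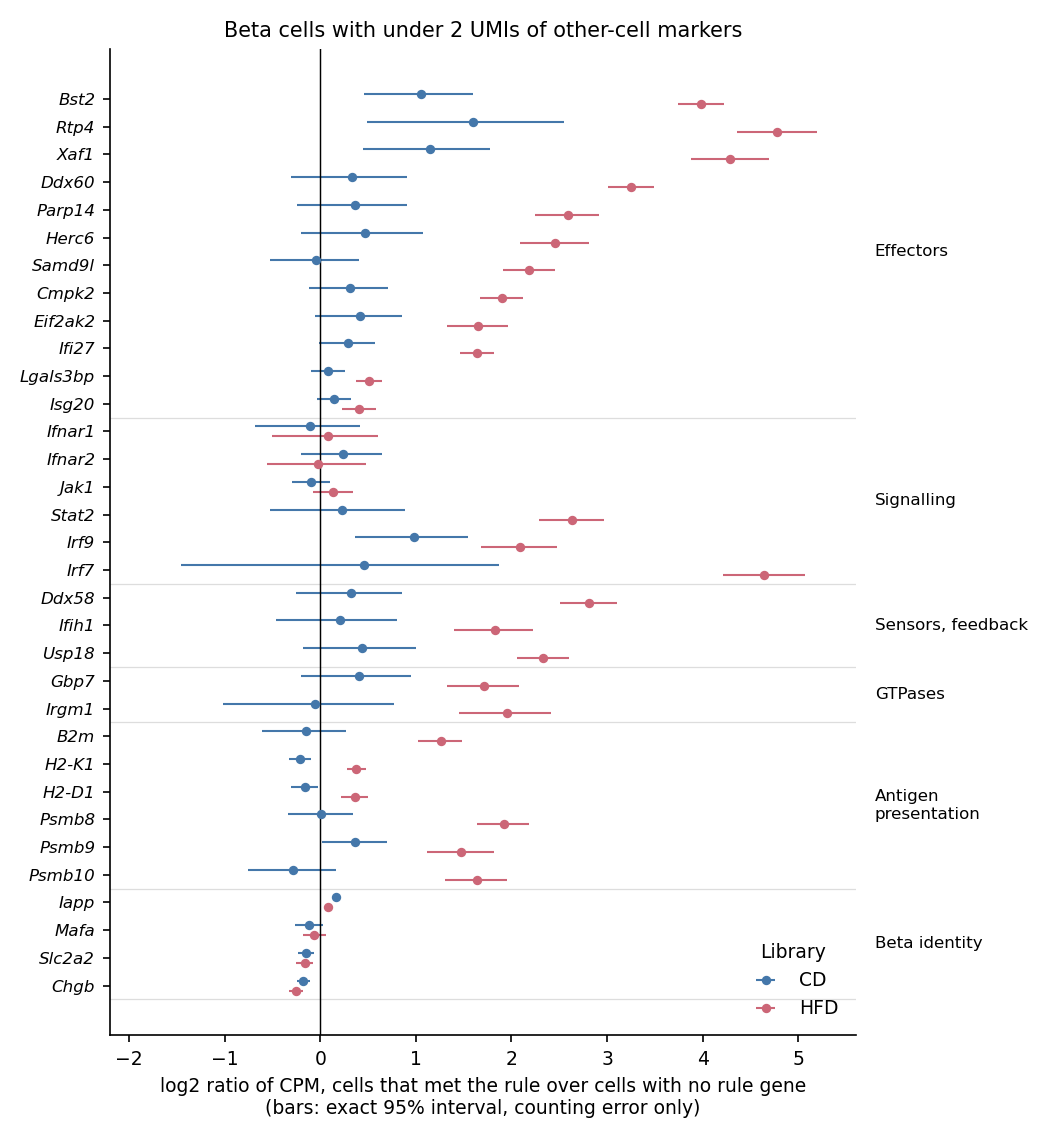
Log2 ratio of CPM between interferon-rule and rule-negative screened beta cells for 33 genes, grouped by role, in CD (blue) and HFD (red), with exact 95% intervals as bars. The HFD points reach 4.78 for Rtp4 and 3.98 for Bst2, where CD has 1.60 and 1.05. The CD point of Rtp4 rests on 10 UMIs in 4 cells. Ifnar1, Ifnar2, Jak1 and the 4 beta identity genes drawn (Iapp, Mafa, Slc2a2 and Chgb) lie between -0.26 and 0.24 in both libraries.

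Along the signalling chain, the ratios of Ifnar1, Ifnar2 and Jak1 over all screened HFD interferon-rule cells had intervals that held 0. Stat2, Irf9 and Irf7, further down the chain, had high ratios. Of the 16 listed signalling genes, 7 passed the 5 CPM limit in screened HFD cells, with a median log2 ratio of 0.076. Ifnar1 (chr16:91485238-91507441 on GRCm38, GENCODE M21) was at 5.78 against 5.48 CPM in screened HFD cells, a log2 ratio of 0.08 (-0.50 to 0.60), and Ifnar2 at 6.55 against 6.63 CPM, -0.02 (-0.56 to 0.47). With at least 3 rule genes the receptors were lower, at a log2 ratio of -1.07 for Ifnar1 and -0.86 for Ifnar2. These rest on few UMIs: Ifnar1 had 1, 2 and 2 UMIs in screened HFD cells with 3, 4 and 5 rule genes, and Ifnar2 had 5, 1 and 1 (6.19, 2.46 and 1.41 CPM against 6.63 with none). Over all HFD cells, before the screen, Ifnar2 was at 0.69. Jak1 was at 39.5 against 35.9 CPM, 0.14 (-0.07 to 0.34). Stat2 was at 16.9 against 2.73 CPM, 2.63 (2.28 to 2.97), and Irf9 at 12.1 against 2.85 CPM, 2.09 (1.68 to 2.48). Irf7, which amplifies interferon production and is itself induced, was at 17.3 against 0.693 CPM, 4.64 (4.21 to 5.07). Stat2, Irf9 and Irf7 were thus each over 4-fold higher in HFD by these values, though their level over all screened beta cells lay under the 5 CPM limit.

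Irf7 went from 2.44 CPM with 2 rule genes to 70.7 with 5 in screened HFD cells. In screened CD cells Irf9 was at 4.93 against 2.49 CPM (0.98, interval 0.36 to 1.55) and Irf7 at 0.73 against 0.533 CPM. Of the signalling list of 16 genes, 6 passed the limit in screened CD cells and 7 with all CD cells, and none was called. With 0.0274% of all tested genes higher and 0.109% lower in screened CD cells, a count of 0 is at the background.

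Sensors and inhibitors that interferon is known to induce had high ratios too. Ddx58, which encodes the RNA sensor RIG-I, was at 22.9 against 3.27 CPM in screened HFD cells (2.81, interval 2.51 to 3.10), Ifih1, which encodes MDA5, at 11.0 against 3.09 CPM (1.83, interval 1.40 to 2.23), and Dhx58 at 5.01 against 0.39 CPM (3.68, interval 2.95 to 4.38). None of the 11 listed sensors passed the 5 CPM limit in either library. Usp18, which removes Isg15 from proteins and blocks signalling at IFNAR2, was at 26.0 against 5.16 CPM (2.33, interval 2.06 to 2.60). Of 6 listed inhibitors, 2 passed the limit in screened HFD cells and only Usp18 was higher, beside 0.264% of all tested genes. In screened CD cells Usp18 was at 4.93 against 3.63 CPM. Socs1 had 7 UMIs in the screened HFD cells (1.35 against 0.289 CPM).

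The 14 interferon-induced GTPases, which are mainly known as targets of interferon gamma, were scarce. None passed the 5 CPM limit, and together they stood at 39.5 against 8.70 CPM in screened HFD cells and at 11.3 against 9.35 CPM in CD. Gbp7 was at 12.7 against 3.88 CPM (1.71, interval 1.32 to 2.08) and Irgm1 at 8.28 against 2.14 CPM (1.95, interval 1.45 to 2.41) in HFD. The families hold near-identical copies, so reads may be split among them.

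Of 19 antigen presentation genes, 14 passed the limit in screened HFD cells and 5 were higher, beside 0.264% of all tested genes, with a median log2 ratio of 0.66. In CD 15 passed, none was called, and the median was -0.15; with 0.0274% of all genes higher there, a count of 0 is at the background. The immunoproteasome subunits, which change the peptides cut for MHC class I, were 3 of the 5. Psmb8 was at 24.6 against 6.53 CPM (1.92, interval 1.64 to 2.19), Psmb9 at 14.4 against 5.19 CPM (1.48, interval 1.11 to 1.82) and Psmb10 at 17.1 against 5.51 CPM (1.64, interval 1.30 to 1.95). In CD Psmb8 was at 14.0 against 13.9 CPM, so the resting level there was above that of HFD rule-negative cells.

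B2m, the light chain of MHC class I, was at 32.3 against 13.5 CPM in screened HFD cells (1.26, interval 1.02 to 1.49) and went from 14.1 CPM with 2 rule genes to 97.6 with 5. In CD it was at 8.39 against 9.33 CPM (-0.15, interval -0.61 to 0.27). The heavy chains differed less: H2-K1 was at 169 against 130 CPM in HFD (0.38, interval 0.28 to 0.47) and 120 against 138 CPM in CD (-0.21, interval -0.32 to -0.10), and H2-D1 at 86.1 against 67.0 CPM in HFD and 81.7 against 91.5 CPM in CD. Free RNA held 77.6 CPM of B2m in HFD and 65.7 CPM in CD, above either set of screened cells, and its part was not tested. Erap1, which trims peptides, was at 11.0 against 10.1 CPM in HFD (0.12, interval -0.29 to 0.51).

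Cxcl10, which draws T cells, had 60 UMIs in 14 of 160 screened HFD interferon-rule cells, 11.6 CPM against 0.0794 CPM in rule-negative cells, a log2 ratio of 7.18 (6.24 to 8.26). It was carried by few cells: 52 of the 60 UMIs lay in 9 of the 22 cells with 5 rule genes, with up to 16 UMIs in 1 cell. No CD interferon-rule cell had a UMI of it. Cd274, which encodes the T cell inhibitor PD-L1, was at 4.43 against 2.28 CPM in HFD (0.96, interval 0.28 to 1.57) and 3.65 against 2.15 CPM in CD.

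Transcripts of the interferons themselves were nearly absent from these cells. Of 21 interferon genes, Ifnb1, the first type I interferon made by most cells, had 6 UMIs in 3 of the 202 HFD interferon-rule cells and 0 in the screened 160, and 0 in the CD cells. It was found mainly in macrophages, in 15 of 142 in CD (54 UMIs) and 33 of 177 in HFD (59 UMIs). Cxcl10 was likewise highest in macrophages, at 922 CPM in HFD and 550 in CD.

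Genes of beta cell identity stood near the level of rule-negative cells. Of 24 identity genes 23 passed the limit in each library, with a median log2 ratio of -0.06 in HFD and -0.08 in CD screened cells. None was called, a count at the background of 0.264% higher and 0.0696% lower genes in HFD. Iapp, the amyloid peptide stored with insulin, had a log2 ratio of 0.08 (0.07 to 0.08) in HFD and 0.17 (0.16 to 0.17) in CD. Mafa, a factor of mature beta cells, was at 110 against 114 CPM in HFD (-0.06, interval -0.18 to 0.06). Slc2a2, the glucose transporter, was at 206 against 231 CPM (-0.16, interval -0.25 to -0.07), and Chgb, a granule protein, at 299 against 358 CPM (-0.26, interval -0.33 to -0.18), both within the 2-fold range. Ins1 and Ins2 together held a median of 63.9% of UMIs in HFD interferon-rule and 63.6% in rule-negative screened cells.

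Genes of the unfolded protein response, a usual strain of secretory cells, had a median log2 ratio of 0.0034 over the 13 tested in screened HFD cells. None was called, again at the background of 0.264%. The chaperone Hspa5 was at 301 against 297 CPM (0.02, interval -0.06 to 0.09) and the stress factor Ddit3 at 22.3 CPM in both sets. Atf3, a stress factor on the same list, was at 10.0 against 2.08 CPM, but 46 of its 52 UMIs came from 1 cell. Of 10 immediate early genes, which dissociation is known to raise, 4 were higher with all HFD cells, beside 0.788% of all tested genes, and 0 of 9 tested with screened cells, beside 0.264%. Junb went from 64.8 against 27.7 CPM to 33.9 against 26.0 CPM with the screen, so its ratio was smaller where other-cell markers were few.

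Cdk1 and Ube2c, genes of mitosis, were higher in screened HFD interferon-rule cells at 10.6 against 4.82 CPM and 27.3 against 10.7 CPM. Both rested on 6 of 160 cells, with up to 20 and 46 UMIs in 1 cell. Cdk1 lay under the 5 CPM limit in rule-negative cells, so the interferon-rule cells may have brought it over that limit. At least 2 UMIs of Mki67 and Top2a together were found in 5 of the 160 (3.13%, interval 1.02 to 7.14%) and in 2.71% of all rule-negative HFD cells. In CD they were found in 10 of 104 screened interferon-rule cells (9.62%, interval 4.71 to 17.0%) and in 3.52% of all rule-negative cells. The median depths of these CD sets were 54333 and 26303 UMIs, and the part of depth was not tested. Cdk1 was at 5.66 against 6.66 CPM and Ube2c at 18.6 against 17.4 CPM in screened CD cells.

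Outside the lists, Col4a1, a basement membrane collagen made by endothelium, ranked highest over both libraries with all cells. It was at 13.0 against 6.32 CPM in CD and 28.3 against 6.50 CPM in HFD. In all HFD cells Fabp4 was at 76.6 against 2.06 CPM and Esm1 at 70.5 against 2.74 CPM, both known from endothelium. Highest in screened HFD cells were Parp12, at 18.7 against 7.44 CPM, Trafd1, at 15.6 against 7.37 CPM, and Ogfr, at 14.2 against 7.12 CPM. Parp12 is an interferon-induced antiviral enzyme and Trafd1 a brake on immune signalling. In CD they were at 8.76 against 6.95, 10.4 against 9.07 and 6.75 against 8.51 CPM. Spint1, a protease inhibitor, ranked first among genes outside the lists with ratios under 1 in both libraries, within the 2-fold range, at 34.9 against 44.2 CPM in CD and 26.0 against 34.4 CPM in HFD with all cells.

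The 2 genes higher in screened CD interferon-rule cells were markers of delta cells. Sst, the hormone somatostatin, was at 560 against 211 CPM and Rbp4 at 58.4 against 24.6 CPM, whereas in HFD Sst was at 189 against 232 CPM. Free RNA held 1770 CPM of Sst in CD and 1738 CPM in HFD. Up to 492 of the 3070 CD Sst UMIs came from 1 cell. The part of delta cell RNA in the CD cells was not tested.

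The same 5 genes were found far more often in endothelial cells. With each cell thinned to 3000 UMIs, at least 2 rule genes were found in 62 of 261 endothelial cells of CD (23.8%, interval 18.7 to 29.4%) and 105 of 402 of HFD (26.1%, interval 21.9 to 30.7%). Among macrophages it was 18 of 161 (11.2%, interval 6.76 to 17.1%) in HFD and 2 of 132 (1.52%, interval 0.184 to 5.37%) in CD. Alpha cells, which make glucagon, stood at 0 of 1025 in CD, which allows up to 0.293%, and 7 of 1488 in HFD (0.47%, interval 0.189 to 0.967%), and beta cells at 2 of 5687 (0.0352%) and 36 of 6815 (0.528%, interval 0.37 to 0.731%). Among delta cells it was 4 of 363 (1.10%, interval 0.301 to 2.80%) in HFD and 5 of 351 (1.42%, interval 0.464 to 3.29%) in CD. Within the CD library the interval of delta cells lay above that of beta cells, 0.00426 to 0.127%, and within HFD they overlapped. These intervals cover cells of single libraries and compare no diets.

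**Figure D5:**
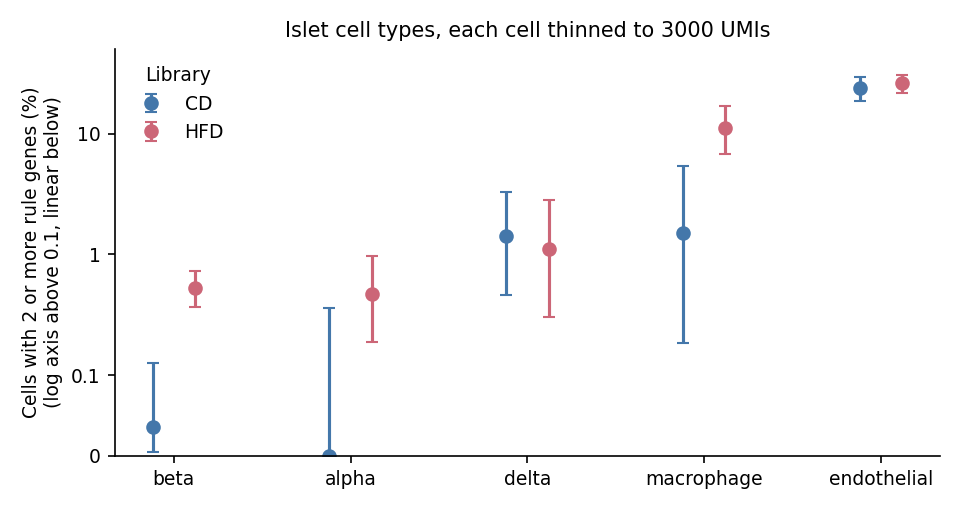
Share of cells (%) with at least 2 rule genes in 5 islet cell types, each cell thinned to 3000 UMIs, in CD and HFD, with exact 95% intervals (log axis above 0.1%, linear below). Endothelial cells lie at 23.8% and 26.1%, and HFD beta cells at 0.528% against 0.0352% in CD.

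The interferon-rule cells were also set beside other genes that divide beta cells, with all rule-negative cells as the reference. Cd79a, a gene of the B cell receptor found in many beta cells here, had a UMI in 26 of 160 screened HFD interferon-rule cells (16.3%, interval 10.9 to 22.9%) and 18.1% of rule-negative cells. In CD it was 65.4% and 51.0%, at median depths of 54333 and 26303 UMIs. By level, Cd79a was lower in screened HFD interferon-rule cells, at 8.28 against 15.2 CPM (log2 ratio -0.87, interval -1.34 to -0.44), within the 2-fold range. In screened CD cells it was at 84.3 against 83.5 CPM. Aldh1a3, a marker of beta cells that lose maturity, had a UMI in 10 of 160 HFD cells (6.25%, interval 3.04 to 11.2%) and in 4.73% of rule-negative cells, and in 1 of 104 in CD.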

How the data were processed

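Islet cells of 1 CD and 1 HFD library were profiled with the 10x Genomics 3′ v3 kit. The deposited matrices hold raw UMI counts per gene and barcode with no normalization by the authors; they list every possible barcode. Per the submitters' processing notes, Cell Ranger 6.0.1 and mm10 were used, while per the file headers the software version was 3.0.2; no source used here names the annotation release. Of 31053 gene identifiers, 30934 matched GENCODE M21 on GRCm38, the assembly behind mm10, which gave the gene positions.

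Barcodes were kept and gated as the report states. UMIs were summed per library and cell set and divided by total UMIs (CPM). Ratios have exact conditional binomial intervals, shares Clopper-Pearson intervals and CPM exact Poisson intervals, all at 95%. Cells are not replicates, so no p-value was computed. Doublet scores (scrublet in scanpy 1.11.5) were used only as an alternative. In sums simulated with Poisson error alone from the CD and HFD rule-negative cells, 95.2% of intervals over 7303 genes and 95.9% over 7189 genes held the true ratio. The simulation had no variation between cells. It therefore checks the interval formula only, and not whether the intervals cover the clumped UMIs of real cells. The members and gene lists were chosen with earlier results of these data known. Named genes had the most UMIs in their list or the ratio farthest from 1 by its nearer bound, or ranked in the top 10 in either direction outside the lists; further genes, the single-library ranks and the screen were chosen after their values were seen. Alternatives covered doublets, filters, thinning, TMM factors (edgeR 4.0.16, R 4.3.3), depth weighting, and fold and CPM limits. 1 gene of the signalling list is not reported here.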

Additional observations from a re-analysis of the deposited data

Results flagged for a closer look

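Cd74, the invariant chain of MHC class II, lay on opposite sides in the 2 libraries: its log2 ratio of interferon-rule over rule-negative beta cells was -2.15 in CD (16 against 1637 UMIs) and 2.93 in HFD (546 against 1549 UMIs). The difference between the libraries was not tested. Cd74 is a leading transcript of macrophages, and in screened cells it was at 2.01 against 1.60 CPM in CD and 2.12 against 2.11 CPM in HFD.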

How the results depend on the processing

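No paired analysis was possible because each diet has 1 library. For the same reason no replicate was left out, and none of the results below comes from a test.

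The share of beta cells that met the rule was 2.12% in CD and 2.95% in HFD. It was 0.226% and 1.17% with at least 3 rule genes, 0.129% and 1.23% when thinned to 10000 UMIs, and 0.0900% and 0.781% when thinned to 5000. It was 1.48% and 2.49% without cells with 2 UMIs of the 44 planned other-cell markers, 2.44% in HFD with the narrower 40-marker screen, and 0.089% and 0.976% with that screen and 3 rule genes.

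The log2 ratio of the effector list was 0.35 in CD and 1.61 in HFD. It was 0.28 and 1.51 with TMM factors, 0.28 and 1.53 with totals without insulin and mitochondrial genes, 0.21 and 0.87 with exactly 2 rule genes, 1.17 and 2.36 with at least 3, 0.90 and 2.37 with at least 3 in screened cells, and 0.20 and 1.48 in screened cells. It was 0.25 in CD with doublets removed, 0.13 in CD with the planned markers and 1.78 in HFD with every cell counted alike. No alternative changed its sign.

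Higher genes numbered 3 in CD and 57 in HFD. The counts were 32 and 161 at 2 CPM, 41 and 160 at 1.5-fold, 0 and 30 with doublets removed, 1 and 24 with the planned markers, 19 in HFD with the screen, 6 in HFD at 20 CPM, 6 in CD with cells counted alike, and in CD 197 with at least 3 rule genes and 246 with the screen added, which left 13 and 5 CD cells. Lower genes numbered 6 and 2. The counts were 32 and 13 at 2 CPM, 0 and 1 at 20 CPM, 46 and 13 at 1.5-fold, 382 and 40 with at least 3 rule genes, 1195 and 111 with the screen added, 30 and 21 with the planned markers, 5 in HFD with the screen, 2 in CD with depth weighting, and in HFD 4 with TMM factors and 1 with cells counted alike.

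Single genes changed sign as follows (log2). With the screen: B2m -0.15, Cd74 0.33, Esm1 -0.12, Fabp4 -0.15, Ifitm3 -1.32 and Plvap -0.12 in CD; Esm1 -0.38, Fabp4 -2.35, Ifnar2 -0.0190 and Plvap -0.36 in HFD. With the planned markers: B2m -0.17, Cd74 0.48, Fabp4 -0.11, Ifnar2 -0.0622, Junb -0.0534 and Psmb9 -0.15 in CD; Esm1 -0.83 and Ifnar2 -0.0390 in HFD. With at least 3 rule genes in screened cells: Cd74 1.02 and Iapp -0.0532 in CD; Cd74 -0.0228, Col4a1 -0.28, Fabp4 -0.92 and Ifnar2 -0.86 in HFD. Ifnar2 was -0.0780 in HFD with at least 3 rule genes, Iapp -0.0452 and -0.0239 in HFD with TMM factors and with totals without insulin, and Chgb 0.0252 in CD with depth weighting. The cause of each change was not tested. Of these genes only Plvap is itself a marker of the screen, which therefore lowers it by construction. Removing the highest doublet scores took 23 of 122 CD (18.9%) and 35 of 202 HFD interferon-rule cells (17.3%), against 4.99% and 5.96% of rule-negative cells. Among screened interferon-rule cells it took 11 of 104 in CD and 10 of 160 in HFD. Of screened cells with at least 3 rule genes it took 1 of 5 in CD and 1 of 64 in HFD. Depth limits the scarce genes most: levels under 1 CPM rest on a few UMIs.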
